A study of Mus musculus with 4 samples.

Results

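The genes of the Desert hedgehog pathway were examined in RNA-seq of ID4-EGFP+ spermatogonia with and without *Cnot3*. The set held 8 genes of the 54920 listed: the ligand *Dhh*, the receptor *Ptch1*, the transducer *Smo*, the inhibitors *Sufu* and *Hhip*, and the transcription factors *Gli1*, *Gli2* and *Gli3*. They were taken by gene symbol. The set was selected on the measured fold changes of *Dhh* and *Ptch1*, which had opposite signs in this comparison, so the differences of these 8 genes between the groups are given as a description, without a test. All 8 passed the filter on low counts.

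Hedgehog ligands are secreted proteins that bind PTCH1. Without ligand PTCH1 holds SMO inactive, and SUFU and protein kinase A keep the GLI transcription factors in a repressed or processed form. With ligand SMO becomes active in the primary cilium, GLI proteins activate their targets, and *Gli1*, *Ptch1* and *Hhip* are themselves well-known targets. In the testis DHH is made by Sertoli cells and is best known for signalling to Leydig and peritubular myoid cells.

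Testes were taken at postnatal day 8 from mice that had received 4OHT from day 1 to day 3. Control mice carried floxed *Cnot3* alleles and the *Id4-eGfp* reporter but no Cre, although the labels call them wild-type. *Cnot3*-cKO mice carried the same alleles plus *Ddx4*-creER, an inducible Cre driven by a germ cell promoter, so the deletion was aimed at germ cells. ID4-EGFP+ cells were sorted from the dissociated tubules of each genotype, and 2 control and 2 *Cnot3*-cKO libraries were counted here. The paper states 3 biological replicates for this RNA-seq, so the libraries used here are fewer than it reports. The strain, and how many animals went into a library, are not given in the sources used here, so the spread between libraries may be partly technical.

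Libraries held 22192964 to 43378493 counted reads, and the *Cnot3*-cKO libraries were the shallower pair. A gene with 0 reads could still have been present at up to 3 reads, which is 0.0713 to 0.132 CPM (reads scaled to a common library total) and covers counting error only. *Cnot3* itself was at 58.6 and 50.2 CPM in controls and 19.2 and 19.9 CPM in *Cnot3*-cKO libraries. The germ cell markers *Ddx4* and *Dazl* were at 703 to 754 and 2024 to 2634 CPM in the 4 libraries, and *Id4*, whose reporter was the basis of the sort, was at 20.6 and 19.7 CPM in controls and 36.3 and 46.3 CPM in *Cnot3*-cKO libraries. With 2 libraries against 2, the smallest two-sided p of an exact permutation test on 1 gene is 0.333.

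RefSeq start windows on GRCm38.p6 (250 bases before to 50 after the start, 300 in all) were held for 7 of the 8 genes, and no window was held for *Gli1*. The windows of *Dhh* and *Ptch1* are shown because the set was built around this pair. Both lie on the reverse strand and are written 5′ to 3′. Capitals mark the GC box GGGCGG or its reverse complement CCGCCC.

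Dhh, chr15:98898491-98898790: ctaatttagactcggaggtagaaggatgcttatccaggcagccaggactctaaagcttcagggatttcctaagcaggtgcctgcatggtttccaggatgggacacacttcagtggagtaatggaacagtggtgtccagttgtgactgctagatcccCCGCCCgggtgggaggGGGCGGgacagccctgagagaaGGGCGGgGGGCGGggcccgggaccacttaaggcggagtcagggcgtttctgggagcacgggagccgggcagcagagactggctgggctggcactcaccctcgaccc

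Ptch1, chr13:63565686-63565985: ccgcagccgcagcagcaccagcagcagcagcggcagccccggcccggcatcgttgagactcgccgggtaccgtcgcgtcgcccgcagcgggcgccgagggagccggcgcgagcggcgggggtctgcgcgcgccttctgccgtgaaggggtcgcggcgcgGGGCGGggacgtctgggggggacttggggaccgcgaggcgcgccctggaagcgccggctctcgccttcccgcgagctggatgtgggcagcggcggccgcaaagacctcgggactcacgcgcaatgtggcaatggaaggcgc

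The *Dhh* window held 4 GC boxes, 12 CG dinucleotides and 61.7% G and C, and the *Ptch1* window 1 GC box, 47 CG dinucleotides and 76.3% G and C. Across all 32851 windows the median was 52.7%, and 35.7% held a GC box. The GLI motif GACCACCCA, searched on both strands, was in none of the 7 windows and in 0.253% of all windows. The absence says only that these letters are not in these 300 bases. The *Ptch1* window lies inside the GENCODE gene, whose start is at 63573598.

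*Dhh*, the ligand, had the widest difference of the 8 genes. It had 170 and 173 reads in controls against 528 and 582 in *Cnot3*-cKO libraries, although the latter were sequenced less deeply. Scaled, this was 4.22 and 4.11 CPM in controls and 23.3 and 20.3 CPM in *Cnot3*-cKO cells. The controls nearly coincided and both *Cnot3*-cKO libraries lay far above them. Means were 4.17 ± 0.0770 and 21.8 ± 2.11 CPM (SD, n = 2 per group). The fitted log2 fold change was 2.39 with a standard error of 0.18, or 5.23-fold. Leaving out 1 library at a time kept the log2 fold change between 2.28 and 2.48. *Dhh* lies on chromosome 15 of GRCm38, from 98891152 to 98898540. Its exons share 546 bases with *Rhebl1* on the same strand, which is 12.4% of their length, and 1107 bases with the antisense transcript *Gm49442*. *Rhebl1* had 765 and 769 reads in controls against 675 and 798 in *Cnot3*-cKO libraries, with a log2 fold change of 0.63. *Gm49442* had 11 and 9 reads in controls against 27 and 22 in *Cnot3*-cKO libraries. The sources used here do not give the strand setting of the counting, so reads in the shared bases cannot be assigned with certainty.

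*Hhip*, a cell-surface protein that binds and sequesters hedgehog ligands, had 120 and 121 reads in controls against 105 and 163 in *Cnot3*-cKO libraries. Scaled levels were 2.98 and 2.88 CPM against 4.63 and 5.69 CPM, so the groups did not overlap. The log2 fold change was 0.82 with a standard error of 0.26.

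*Ptch1*, the receptor, was on the other side. It had 6765 and 5162 reads in controls against 1849 and 2314 in *Cnot3*-cKO libraries, or 168 and 123 CPM against 81.6 and 80.8 CPM. The *Cnot3*-cKO libraries nearly coincided below both controls, while the controls differed from each other. Means were 145 ± 32.0 and 81.2 ± 0.578 CPM (SD, n = 2 per group), and the log2 fold change was -0.84 with a standard error of 0.13. The size rested on the controls: it was -0.61 with control replicate 1 left out and -1.06 with control replicate 2 left out, the latter on the other side of a 2-fold difference. The gene spans 63508328 to 63573598 on chromosome 13.

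**Figure D1:**
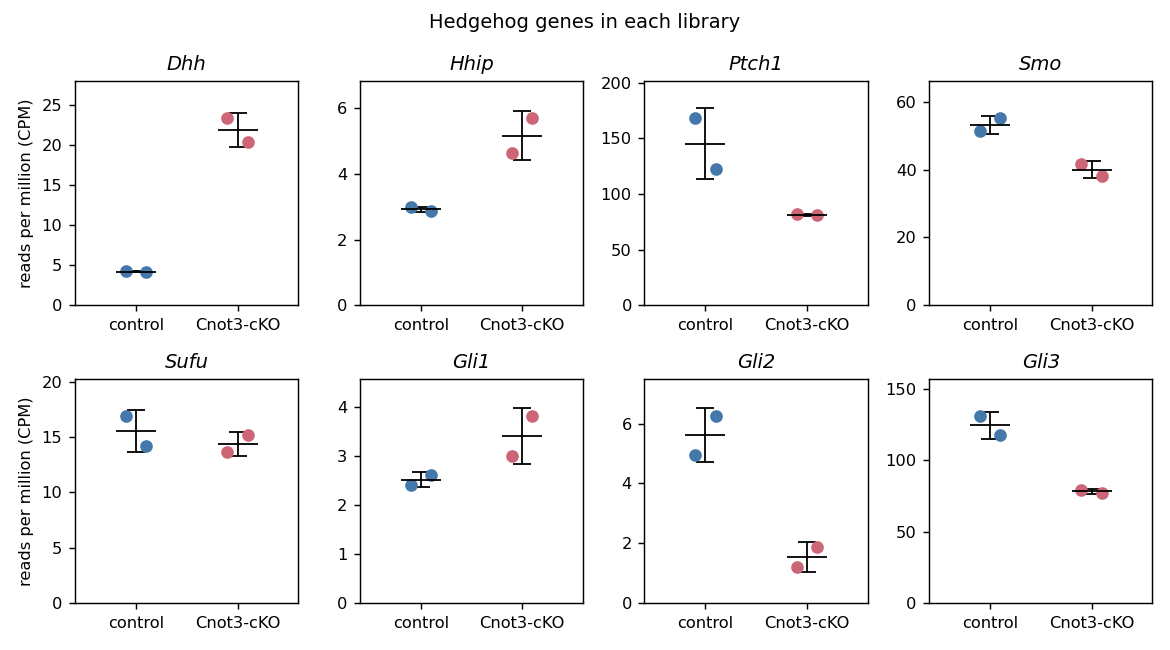
Scaled reads (CPM, y axis from 0) of the 8 hedgehog genes in each library, with controls in blue and *Cnot3*-cKO in red. Horizontal marks are means and bars are SD (n = 2 per group). *Dhh* lies at 4.11 to 4.22 CPM in controls and 20.3 to 23.3 CPM in *Cnot3*-cKO libraries, *Ptch1* and *Gli2* lie lower in both *Cnot3*-cKO libraries, and *Sufu* overlaps.

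*Smo*, the membrane protein that PTCH1 restrains, was at 51.4 and 55.2 CPM in controls and 41.8 and 38.3 CPM in *Cnot3*-cKO libraries. The groups did not overlap, but the difference was smaller than for *Ptch1* (log2 fold change -0.41, standard error 0.11). *Sufu*, which binds GLI proteins in the cytoplasm, was at 16.9 and 14.2 CPM in controls and 13.6 and 15.2 CPM in *Cnot3*-cKO libraries. It was the only gene of the set whose groups overlapped. Its log2 fold change was -0.11 with a standard error of 0.17.

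The GLI factors differed in size and sign. *Gli2*, the main activator, had 200 and 263 reads in controls against only 27 and 54 in *Cnot3*-cKO libraries, or 4.97 and 6.25 CPM against 1.19 and 1.89 CPM. Both *Cnot3*-cKO libraries were well below both controls. Its log2 fold change was -1.85 with a standard error of 0.31, a level of 0.278 relative to controls. The few reads left it less precise, from -2.24 without *Cnot3*-cKO replicate 2 to -1.58 without *Cnot3*-cKO replicate 1.

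*Gli3*, which acts mainly as a repressor, had 5272 and 4953 reads in controls against 1798 and 2199 in *Cnot3*-cKO libraries. These were 131 and 118 CPM against 79.4 and 76.8 CPM. The groups did not overlap, and the log2 fold change was -0.67 with a standard error of 0.10. *Gli1*, an activator and the classic readout of the pathway, had 97 and 110 reads in controls against 68 and 109 in *Cnot3*-cKO libraries. Scaled, it was at 2.41 and 2.61 CPM against 3.0 and 3.81 CPM, with a log2 fold change of 0.44 and a standard error of 0.29. Without *Cnot3*-cKO replicate 2 the *Gli1* value was 0.25. *Gli1* shares 62 exon bases with *Arhgap9* on the opposite strand, which had 78 and 77 reads in controls against 116 and 122 in *Cnot3*-cKO libraries. Of the genes known as pathway targets, *Ptch1* was thus lower in both *Cnot3*-cKO libraries, and *Gli1* and *Hhip* were higher in both.

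Counted by placement, 3 of the 8 genes (*Dhh*, *Hhip* and *Gli1*) lay higher in each *Cnot3*-cKO library than in either control, and 4 (*Ptch1*, *Smo*, *Gli2* and *Gli3*) lay lower in each. Of all 23952 genes tested, 30.5% and 28.6% were so placed. The thresholds used across all genes, an adjusted p under 0.01 in edgeR's quasi-likelihood test and a fold change above 2, were passed upward by 4.03% and downward by 0.735% of all tested genes, and among the 8 genes upward by *Dhh* and downward by *Gli2*. Since the set was selected on this comparison, these counts and placements describe the 8 genes and test nothing about them. The median log2 fold change of the 8 genes was -0.26, and that of all tested genes was 0.0089.

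Levels of different genes were compared as CPM per kb of exon. In control cells the order from high to low was *Gli3*, *Ptch1*, *Smo*, *Sufu*, *Dhh*, *Gli2*, *Gli1* and *Hhip*, with means of 13.0, 10.2, 9.48, 2.02, 0.947, 0.816, 0.503 and 0.323 CPM per kb. *Ptch1* (8.65 and 11.8 CPM per kb) and *Smo* (9.14 and 9.81 CPM per kb) did not differ beyond their spread, and their order turned when length was taken from the longest transcript. The other neighbours did not overlap in the control libraries. *Gli3*, *Ptch1* and *Smo* stood at the 79.6, 75.3 and 73.9 percentiles of all tested genes per kb, and *Dhh*, *Gli2*, *Gli1* and *Hhip* at the 33.6, 31.0, 22.9 and 16.3 percentiles. In controls *Gli3*, *Ptch1* and *Smo* were thus far more abundant per kb than *Dhh*, *Gli2*, *Gli1* and *Hhip*, with *Sufu* between.

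In *Cnot3*-cKO cells *Dhh* stood at 5.30 and 4.62 CPM per kb, at the 62.0 percentile and next below *Ptch1* at 5.75 and 5.70 CPM per kb. The ratio of *Ptch1* to *Dhh* per kb was 12.3 and 9.25 in controls against 1.09 and 1.23 in *Cnot3*-cKO libraries. The ratio of *Gli3* to *Gli2* was 18.9 and 13.5 in controls and 47.7 and 29.2 in *Cnot3*-cKO libraries. The ratio of *Gli3* to *Gli1* went the other way, from 28.3 and 23.5 to 13.8 and 10.5.

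**Figure D2:**
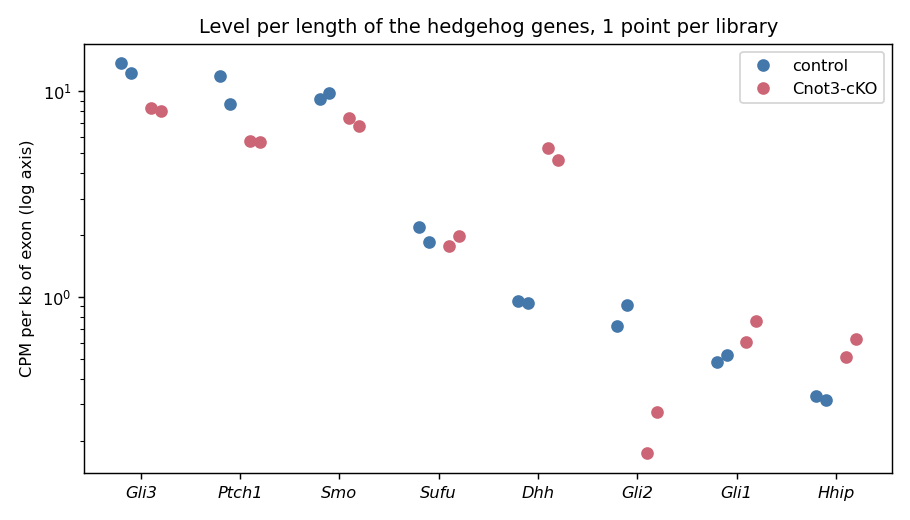
Level per length of the 8 genes, as CPM per kb of exon on a log axis, with 1 point per library (controls blue, *Cnot3*-cKO red). Genes are ordered by their control mean, from *Gli3* at 13.0 to *Hhip* at 0.323 CPM per kb. *Dhh* has means of 0.947 CPM per kb in controls and 4.96 in *Cnot3*-cKO, close to *Ptch1* in the *Cnot3*-cKO libraries.

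Marker transcripts of other testis cells were present in these sorted samples, and each list was higher in its sum in the *Cnot3*-cKO libraries. Of 14 Sertoli cell markers edgeR called 12 higher and 0 lower, also 0 lower at an unadjusted p under 0.05 and in DESeq2, and their summed level was 245 to 257 CPM in controls and 845 to 874 CPM in *Cnot3*-cKO libraries. None of the defining markers was at 0. *Sox9*, the transcription factor of Sertoli cell fate, was at 3.80 and 3.64 CPM in controls and 18.8 and 16.1 CPM in *Cnot3*-cKO libraries. *Amh*, the hormone of immature Sertoli cells, was at 3.10 and 3.16 CPM against 18.3 and 20.2 CPM, and *Fshr*, the receptor for follicle-stimulating hormone, at 2.81 and 2.47 CPM against 9.40 and 9.25 CPM.

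Set against these markers within each library, *Dhh* was closer between the groups. There were 435 and 444 *Dhh* reads per 1000 reads of the 3 defining Sertoli markers in controls against 501 and 446 in *Cnot3*-cKO libraries. The libraries of the groups lay close together on this scale, at a ratio of 1.08. Against the whole Sertoli cell list there were 16.4 and 16.8 *Dhh* reads per 1000 in controls against 27.6 and 23.2 in *Cnot3*-cKO libraries. This was a ratio of 1.53, and here too the groups did not overlap. *Clu*, which also is expressed outside Sertoli cells, supplied most reads of that list. Of the 14 listed Sertoli markers only *Amh*, at 6.15-fold, had a larger fold difference than *Dhh* at 5.23-fold. *Amh* is 1 of the 3 defining markers, and the others, *Sox9* and *Fshr*, were at 4.68-fold and 3.53-fold. The ratio to the defining markers thus depends on which markers are taken. Fewer or more cells of a type and less or more RNA per cell cannot be told apart in these bulk samples, and the part of Sertoli cell RNA in the *Dhh* difference was not tested.

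**Figure D3:**
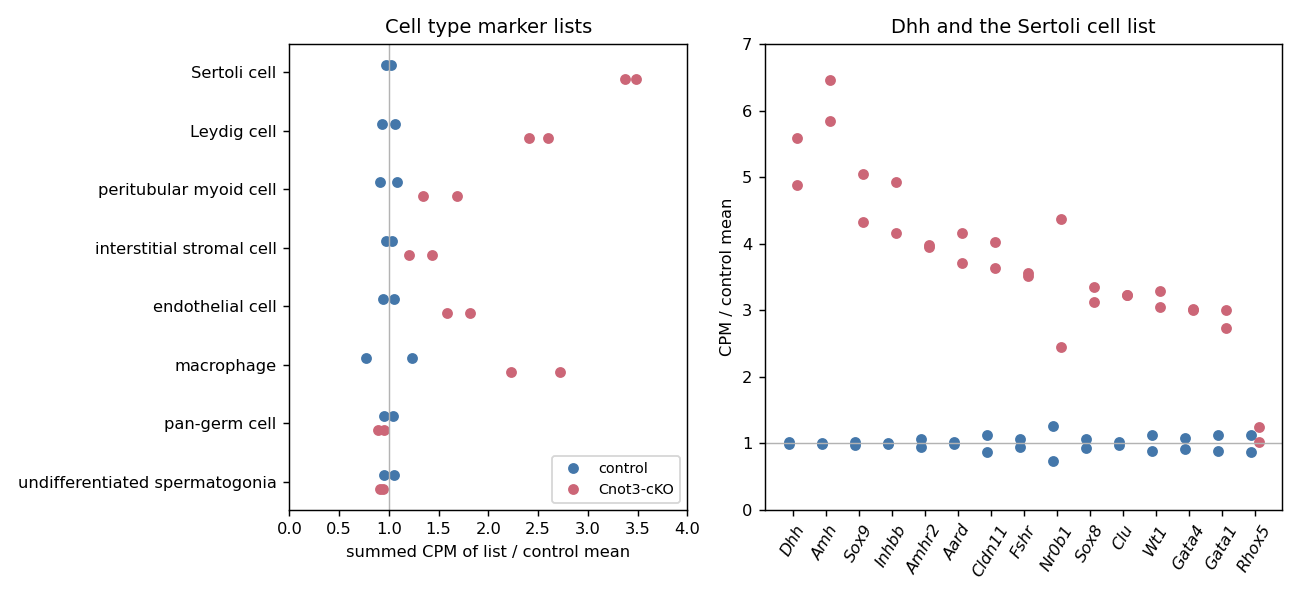
Left, summed CPM of each marker list relative to its control mean, and right, CPM of *Dhh* and of each Sertoli cell marker relative to its control mean (controls blue, *Cnot3*-cKO red, 1 point per library). The Sertoli cell list lies at 3.43 times its control mean on average, the pan-germ cell list at 0.920, and *Rhox5* is the Sertoli marker whose groups overlap.

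Transcripts listed as markers of the cells known to respond to DHH were present as well. Of 6 Leydig cell markers 5 were tested and 4 called higher. Their sum was 322 to 368 CPM in controls and 831 to 896 CPM in *Cnot3*-cKO libraries. *Hsd3b1* alone supplied most of it, at 287 and 248 CPM in controls against 656 and 712 CPM. The defining marker *Insl3* had 0 reads in all 4 libraries, *Cyp17a1* was at 1.76 and 1.59 CPM against 5.08 and 4.36 CPM, and *Lhcgr* at 14.8 and 10.2 CPM against 35.5 and 38.8 CPM. Peritubular myoid cell markers were scarce: their 6 genes summed to 13.9 to 16.5 CPM in controls and 20.4 to 25.7 CPM in *Cnot3*-cKO libraries, with 0 called in either direction by edgeR or DESeq2 and 1, *Acta2*, higher at an unadjusted edgeR p under 0.05. *Acta2* was at 5.41 and 5.66 CPM against 9.14 and 12.1 CPM, and *Myh11* at 5.83 and 7.39 CPM against 7.64 and 9.01 CPM. The adjusted p of *Acta2* in edgeR was 0.00828, but its log2 fold change of 0.94 was short of 2-fold. Not all the list lay on that side: *Tagln* was at 0.546 and 0.808 CPM against 0.530 and 0.349 CPM, and *Cnn1* at 0.199 and 0.737 CPM against 0.353 and 0.454 CPM.

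Interstitial stromal cell markers summed to 349 to 370 CPM against 432 to 514 CPM, with *Pdgfra* at 33.9 and 31.8 CPM against 43.5 and 55.7 CPM and *Tcf21* at 1.74 and 2.28 CPM against 1.77 and 2.86 CPM. Macrophage markers summed to 120 to 192 CPM against 348 to 425 CPM, and endothelial markers to 21.0 to 23.4 CPM against 35.1 to 40.4 CPM. Of 7 macrophage markers edgeR called 6 higher and 0 lower. *Csf1r* was at 40.8 and 25.3 CPM against 84.3 and 69.1 CPM, and *Adgre1* at 19.5 and 13.1 CPM against 36.3 and 31.9 CPM. Of 4 endothelial markers tested, 2 were called higher and 0 lower. *Pecam1* was at 4.59 and 5.32 CPM against 10.7 and 11.7 CPM, and *Cdh5* at 5.31 and 4.90 CPM against 4.81 and 8.03 CPM. Each list of these other cell types was thus higher in its sum in both *Cnot3*-cKO libraries, but not each gene was. *Col3a1* supplied most of the interstitial sum, at 212 and 204 CPM in controls against 265 and 322 CPM. *Col1a1* of that list was lower, at 87.9 and 78.8 CPM against 74.8 and 75.0 CPM. Of the 8 interstitial genes edgeR called 0 in either direction. At an unadjusted edgeR p under 0.05, 5 were higher and 0 lower, against 17.4% and 15.4% of all tested genes. *Pdgfra*, *Dcn* and *Col3a1* had an edgeR adjusted p under 0.01 and were higher, but short of 2-fold. The macrophage gene *Cd14* was at 1.42 and 1.33 CPM against 0.883 and 1.33 CPM.

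The germ cell lists differed little in their sums, but not all their genes did. The 8 pan-germ cell genes summed to 4585 and 5010 CPM in controls and 4285 and 4543 CPM in *Cnot3*-cKO libraries, a ratio of 0.920. *Dazl* was the largest part of that sum and lay lower, at 2339 and 2634 CPM in controls against 2024 and 2263 CPM. Of these genes edgeR called 0. At an unadjusted edgeR p under 0.05, 3 were lower (*Dppa3*, *Tdrd9* and *Dazl*) and 0 higher. Of all tested genes, 15.4% were lower and 17.4% higher at that threshold. The 8 genes of undifferentiated spermatogonia had a ratio of 0.928, over genes that lay on both sides: at an unadjusted edgeR p under 0.05, 3 were higher and 2 lower, and 1, *Id4*, was called. *Gfra1*, the GDNF co-receptor, was at 95.7 and 91.0 CPM against 168 and 180 CPM. *Zbtb16*, a transcription factor of undifferentiated spermatogonia, was at 436 and 364 CPM against 243 and 212 CPM, and *Sall4*, another, at 278 and 289.7 CPM against 194 and 229 CPM. Per 1000 pan-germ cell reads there were 36.6 and 24.5 *Ptch1* reads in controls against 19.0 and 17.8 in *Cnot3*-cKO libraries. On that scale *Gli3* was at 28.5 and 23.5 reads against 18.5 and 16.9 reads, and *Gli2* at 1.08 and 1.25 reads against 0.278 and 0.415 reads. *Ptch1*, *Gli3* and *Gli2* were therefore also lower in both *Cnot3*-cKO libraries when counted against germ cell transcripts. They were lower against each of the other marker lists too, so this scale singles out no cell type. For *Ptch1* the ratio of *Cnot3*-cKO to control was 0.603 against the pan-germ cell list. It was 0.164 against the Sertoli cell list and 0.430 against the interstitial stromal cell list. Which cells the reads came from was not tested.

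The rest of the pathway was read from a list of 45 genes by role, of which 44 were tested. In edgeR's quasi-likelihood test 0 were called higher and 2 were called lower, *Scube2* and *Lrp2*, against 4.03% and 0.735% of all tested genes. At an unadjusted p under 0.05, 3 genes were higher and 17 lower, against 17.4% and 15.4% of all tested genes, and DESeq2 called 0 higher and 2 lower. Both *Cnot3*-cKO libraries lay below both controls for 22 of the 44 genes and above for 10, placements held by 28.6% and 30.5% of all tested genes. The median log2 fold change was -0.14.

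*Scube2* encodes a secreted protein that helps lipid-modified hedgehog leave the producing cell. It was at 12.9 and 16.4 CPM in controls and 4.86 and 7.12 CPM in *Cnot3*-cKO libraries. The groups did not overlap, and its log2 fold change was -1.29 (standard error 0.23, edgeR adjusted p = 0.00179). The call held without each library in turn, with values from -1.60 to -1.06.

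*Lrp2*, or megalin, is an endocytic receptor that can take up hedgehog ligand. It was at 24.9 and 27.7 CPM in controls and 14.6 and 11.8 CPM in *Cnot3*-cKO libraries. Its log2 fold change was -1.0 (standard error 0.16, edgeR adjusted p = 0.00104), only just past 2-fold. It was -0.93 without control replicate 2 and -0.85 without *Cnot3*-cKO replicate 2, where the fold limit was no longer met.

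**Figure D4:**
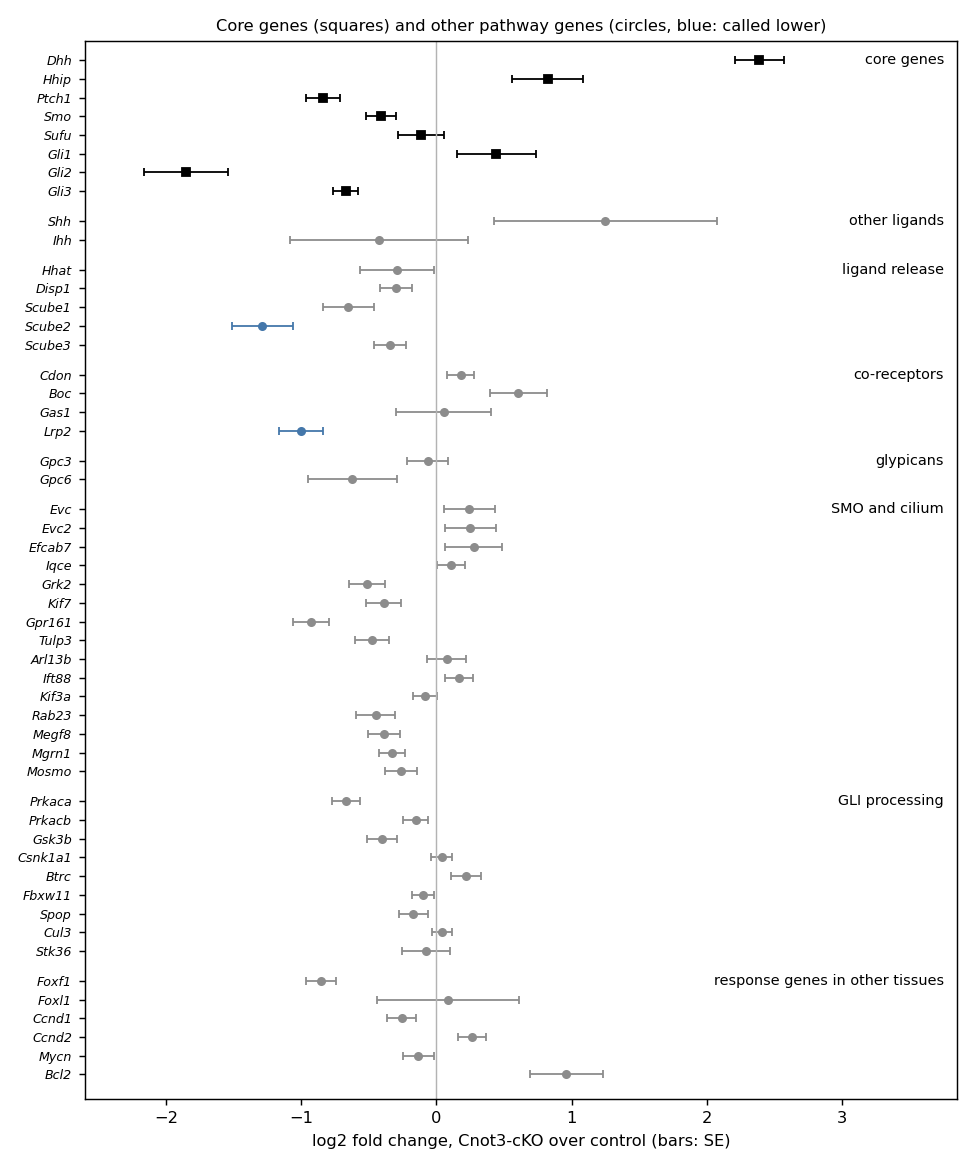
Log2 fold change of *Cnot3*-cKO over control (x axis) with its standard error, for the 8 core genes (black squares, described without a test) and 43 of the 44 tested pathway genes by role (circles). Blue marks the 2 genes called lower, *Scube2* at -1.29 and *Lrp2* at -1.0, and no circle is called higher.

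The other ligands were close to absent. *Shh* had 15 and 6 reads in controls against 22 and 8 in *Cnot3*-cKO libraries, and *Ihh* had 32 and 18 against 12 and 11. Neither differed detectably at this depth (edgeR adjusted p = 0.333 for *Shh* and 0.718 for *Ihh*). *Dhh* was therefore the main hedgehog ligand transcript in every library. *Disp1*, the transporter that releases the ligand, was at 44.1 and 43.9 CPM in controls and 33.9 and 37.6 CPM in *Cnot3*-cKO libraries (edgeR adjusted p = 0.0929). *Cdon*, a co-receptor at 16.2 CPM per kb in controls, was at 136 and 114 CPM against 139 and 144 CPM (log2 fold change 0.18, edgeR adjusted p = 0.242). *Gpc3*, a glypican that binds hedgehog, was at 19.6 and 18.6 CPM against 16.9 and 19.6 CPM.

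Among 15 genes of SMO control and the cilium, 0 were called in either direction by edgeR or DESeq2. At an unadjusted edgeR p under 0.05 there were 8 lower and 0 higher, against 15.4% and 17.4% of all tested genes. *Gpr161*, a ciliary receptor that raises cAMP and holds the pathway off, was at 34.1 and 35.4 CPM in controls and 18.1 and 18.4 CPM in *Cnot3*-cKO libraries. Its adjusted p in edgeR was 4.56e-04 but its log2 fold change of -0.93 was short of 2-fold. *Kif3a*, a motor subunit for building cilia, was at 156 and 147 CPM against 149 and 137 CPM. Among 9 genes of GLI processing, *Prkaca*, the catalytic subunit of protein kinase A, was at 67.5 and 73.1 CPM against 43.8 and 44.7 CPM (log2 fold change -0.67, edgeR adjusted p = 9.02e-04), and *Cul3*, a ubiquitin ligase scaffold, was at 483 and 499.6 CPM against 511.5 and 497.5 CPM.

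Genes that respond to hedgehog in other tissues gave no single direction. *Foxf1*, a GLI target in gut and lung mesenchyme, was at 57.6 and 60.7 CPM in controls and 31.0 and 34.4 CPM in *Cnot3*-cKO libraries. Both *Cnot3*-cKO libraries were lower (log2 fold change -0.85, standard error 0.11, edgeR adjusted p = 2.99e-04), short of 2-fold. *Bcl2*, which encodes a survival protein, was at 2.91 and 2.28 CPM against 4.72 and 5.34 CPM (log2 fold change 0.96, edgeR adjusted p = 0.0248), and it was called higher at 1.13 only when control replicate 1 was left out. *Foxf1*, *Gpr161* and *Prkaca* were the 3 genes of the list with an adjusted p under 0.01 in edgeR and a fold change under 2, and all 3 were lower. *Gpr161*, *Prkaca*, *Bcl2* and *Shh* were chosen for mention after their values were seen. So were the markers *Clu*, *Rhox5*, *Hsd3b1*, *Tagln*, *Cnn1*, *Dcn*, *Col3a1*, *Col1a1*, *Cd14*, *Dppa3*, *Tdrd9*, *Zbtb16* and *Sall4*.

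The genes most like *Dhh* over the 4 libraries, by the root-mean-square difference of centred log2 CPM among 15518 genes, were *Chp2* (0.0441), *Ccn1* (0.0568) and *Sox9* (0.0859). *Chp2* was at 5.16 and 5.04 CPM in controls and 26.0 and 23.6 CPM in *Cnot3*-cKO libraries. The genes most like *Ptch1* were *Bcl9* (0.0272), *Ptdss2* (0.0366) and the pseudogene *Anp32b-ps1* (0.0396). *Bcl9* was at 60.3 and 43.1 CPM in controls and 30.1 and 28.9 CPM in *Cnot3*-cKO libraries, so it carried the same gap between the controls as *Ptch1*. With 4 libraries in 2 groups many genes share such patterns.

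**Figure D5:**
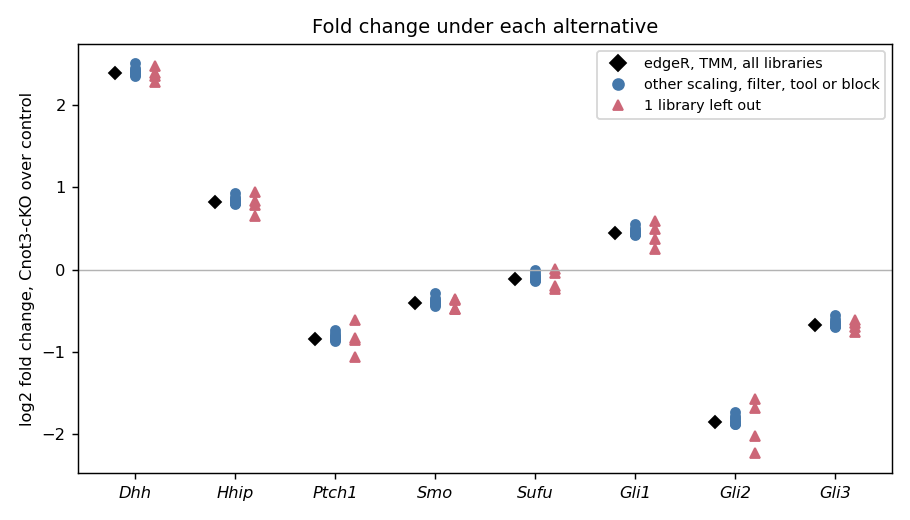
Log2 fold change of *Cnot3*-cKO over control (y axis) for the 8 genes as reported (black), under another scaling, filter, tool or the replicate block (blue) and with 1 library left out (red). All values of *Dhh*, *Hhip* and *Gli1* lie above 0 and all of *Ptch1*, *Smo*, *Gli2* and *Gli3* below 0, while *Sufu* reaches 0.0026 without control replicate 1.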

How the data were processed

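The deposited files held whole-number read counts per gene symbol, which the authors made from reads of mean Phred quality 20 or more with STAR on mm10 and featureCounts on GENCODE M24 genes. They had not been normalized. The handling of strand and of reads that match several genes is not given in the sources used here. Counts were scaled with TMM and compared with edgeR 4.0.16 in R 4.3.3 (default expression filter, quasi-likelihood F test, Benjamini-Hochberg adjustment over 23952 genes, no covariates). A call needed an adjusted p under 0.01 together with a change of over 2-fold. Adjusted p-values for single genes rest on the dispersion fitted across genes, and standard errors were derived from the F statistic. The study used DESeq2, which served as an alternative (1.42.0). CPM used TMM-scaled totals. Lengths and positions came from GENCODE M21 on GRCm38, a release other than the one used for counting, with exons merged per gene. The procedure was tested on simulated data.

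The 8 genes and all lists were chosen with earlier results of these data known. Named genes were the 8 genes, *Cnot3*, called genes of the pathway list and the tested gene of each role with the highest control level per kb, the defining markers, and the 3 genes nearest to *Dhh* and to *Ptch1* among those whose mean log2 CPM was 1 or more (0.5 CPM added before the log). Alternatives were other scalings, filters, tools and thresholds, a replicate block, and leaving out each library. Figures were drawn with matplotlib 3.10.9 under Python 3.11.15. Of the pathway list, 1 gene is counted but not reported here.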

Additional observations from a re-analysis of the deposited data

How the results depend on the processing

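Over 13 alternatives *Dhh* kept a log2 fold change of 2.28 to 2.51, *Hhip* 0.66 to 0.95, *Gli1* 0.25 to 0.59, *Gli2* -2.24 to -1.58, *Ptch1* -1.06 to -0.61, *Gli3* -0.76 to -0.56 and *Smo* -0.49 to -0.29, and *Sufu* ran from -0.24 to 0.0026. *Cnot3* kept its call, at -1.59 to -1.36. Scaling to pan-germ cell genes shifted the median over all tested genes from 0.0089 to 0.127. Under it *Gpc3* (0.047) and *Kif3a* (0.033) turned positive, 107 genes were lower and 1 other pathway gene was lower. That pathway count was also 1 with library size only, with upper quartile scaling and with a mean count of at least 50, since *Lrp2* missed the fold limit (-0.97 to -0.88 over these 4 settings).

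At an adjusted p under 0.05, 1452 genes were higher and 284 lower. With no fold change limit, 1488 genes were higher and 1125 lower, with 3 of the 8 hedgehog genes and 5 other pathway genes past the p threshold on the lower side. No filter gave 285 genes lower. Leaving out 1 library gave 943 to 1225 genes higher and 217 to 271 lower. Of the 8 genes, described here and not tested, 1 to 2 then passed both thresholds on the lower side, *Ptch1* only without control replicate 2, and other pathway genes had 0 to 1 higher and 1 to 2 lower. *Cul3* then ran from -0.0014 to 0.054, *Gpc3* from -0.18 to 0.027 and *Ihh* from -0.81 to 0.072. What caused these changes was not tested.

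The libraries share only replicate numbers. A correlation of 0.0585 over 18050 genes was found between the same-numbered libraries in how they departed from their groups. A fit with the replicate block gave 1155 higher and 217 lower genes, and no call changed among the other pathway genes. Depth limits *Gli2*, *Gli1* and *Hhip*, which had 27 to 163 reads in the *Cnot3*-cKO libraries.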
